A study of Mus musculus with 9 samples.

Results

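The miR-29 family was followed through small RNA libraries of extracellular vesicles from cultured mouse podocytes. Its members were the 5 identifiers mmu-miR-29a-3p, mmu-miR-29a-5p, mmu-miR-29b-3p, mmu-miR-29c-3p and mmu-miR-29c-5p (written below without the species prefix), taken by name from the 1915 mouse miRNA identifiers listed for each library. The podocytes, epithelial cells that cover the capillaries of the kidney filter, were a conditionally immortalized line grown with interferon-γ and then differentiated without it for 10 days on collagen-coated dishes. The 3 groups of 3 libraries were normal glucose (5.3 mM glucose), mannitol (5.3 mM glucose with 24.7 mM mannitol, the control for osmolality) and high glucose (30 mM glucose), each kept for 48 h before the culture supernatant was collected. All groups came from the same line, the growth and differentiation media held fetal bovine serum, and no label states that vesicles had been removed from it. The labels name no separate cultures behind the libraries of a group; the spread that the p-values rest on may therefore be technical.

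A miRNA is cut from a hairpin precursor, whose 5p and 3p arms can both be released, and the arm that enters the silencing complex pairs with messenger RNAs mainly through its seed, bases 2 to 8. In the miR-29 family the 3p arms act as guides. They are known for repressing collagens and other matrix proteins in fibroblasts and kidney cells, and loss of miR-29 accompanies fibrosis in several organs. Podocytes produce type IV collagen chains of the glomerular basement membrane.

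The mature sequences of all 5 members were found in RefSeq (GRCm38.p6, the build named mm10 by the submitters). They are printed 5′ to 3′ with the seed in capitals, to show the seed that the 3p arms have in common and the shifted start of the 5p arms.
miR-29a-3p: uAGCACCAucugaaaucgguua
miR-29c-3p: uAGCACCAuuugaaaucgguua
miR-29b-3p: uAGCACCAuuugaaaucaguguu
miR-29a-5p: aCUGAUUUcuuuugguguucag
miR-29c-5p: uGACCGAUuucuccugguguuc

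The 3 guide arms share the seed AGCACCA. Of 1623 identifiers in the files with a RefSeq mature sequence, these 3 alone (0.185%) had it at bases 2 to 8. Counted from the 5′ end, miR-29a-3p and miR-29c-3p differ by the single substitution C10U. Reads of these arms are therefore told apart by 1 base, and the sources used here give no mismatch setting for the authors' alignment. Against miR-29a-3p, miR-29b-3p has C10U, G18A, U21G and A22U and is 1 base longer. The 5p arms of Mir29a and Mir29c are also alike, but miR-29c-5p starts 2 bases earlier: with that shift they differ at 3 of the 20 bases they have in common. Bases 2 to 8, counted from each arm's own 5′ end, are therefore not the same.

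The family is encoded by 4 hairpins in 2 clusters. Mir29a (chr6:31062660-31062747, minus strand) and Mir29b-1 (chr6:31063023-31063093, minus strand) lie 275 bases apart. In GENCODE M21, Mir29a overlaps no other gene and the first 2 bases of Mir29b-1 overlap an exon of the long noncoding RNA Gm27019. Mir29b-2 (chr1:195037040-195037120, plus strand) and Mir29c (chr1:195037547-195037634, plus strand) lie 426 bases apart, both inside an exon of the noncoding transcript A330023F24Rik and opposite an exon of Cd46, a complement regulator. The mature miR-29b-3p is identical from Mir29b-1 and Mir29b-2, so its reads cannot be assigned to a cluster. The chromosome 6 hairpins are shown with the 3p arm in capitals, because they are close neighbours whose guide arms were listed at very different counts.
Mir29a: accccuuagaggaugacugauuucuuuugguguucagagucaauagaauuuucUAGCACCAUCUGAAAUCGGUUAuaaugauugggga
Mir29b-1: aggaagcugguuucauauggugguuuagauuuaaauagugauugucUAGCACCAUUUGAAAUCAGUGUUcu

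The label of the family as collagen-targeting was checked on sequence alone, since no messenger RNA was measured. The match to the seed, TGGTGCT, was searched on the transcript strand only, in the longest 3′ UTR of each gene in GENCODE M21. It was present in 25 of 44 collagen chain genes (56.8%, median 3′ UTR 1032 bases) and in 2734 of 20966 genes in all (13.0%, median 954 bases). In windows of equal length, the first 1000 bases of the 3′ UTR, it was present in 12 of 24 collagen genes (50%) and in 1022 of 10164 genes (10.1%). Col1a2, the second chain of type I collagen, held no match. Of the 6 type IV collagen chain genes, all held at least 1 match in the whole 3′ UTR, with 4 in Col4a3 and 3 in Col4a5. These counts are not matched for length: the 3′ UTR had 3175 bases in Col4a3, 4708 in Col4a4 and 1110 in Col4a5. The first match in Col4a3 began at base 1752, beyond the window of 1000 bases, and Col4a2, at 971 bases, was too short for it. Short stretches around the first match are shown for a pair of fibrillar and a pair of basement membrane collagens, with the match in capitals.
Col1a1 (chr11:94952523-94952552, plus strand): gtgggaaggaatttcTGGTGCTatagaagc
Col3a1 (chr1:45348967-45348996, plus strand): ttcaaaatgtctcaaTGGTGCTataataaa
Col4a1 (chr8:11199754-11199783, minus strand): gccaccgtcacaacaTGGTGCTactccccc
Col4a5 (chrX:141688238-141688267, plus strand): cactgctcccaccaaTGGTGCTaatatcct
A match of these letters is a description of the sequence and was not tested as a site.

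In the counts of the vesicle libraries the family was almost entirely miR-29a-3p. This arm was listed in all 9 libraries, miR-29b-3p and miR-29c-3p in 1 library each, and mmu-miR-29a-5p and mmu-miR-29c-5p in none (0 in each of the 9). The remaining arms of the family, miR-29b-1-5p and miR-29b-2-5p, were also listed in none. Of all 1915 identifiers, 479 (25.01%) were listed in at least 1 library and 260 (13.6%) in all 9. The files hold no count from 1 to 9, so a listed 0 stands for up to 9 reads, which was 3.52 CPM (the count divided by all miRNA counts of the library and scaled to 1e+06) in the deepest library and 12.4 CPM in the shallowest. Total miRNA counts per library were 725211 to 2553690.

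The counts of miR-29a-3p were 1924, 1184 and 1516 reads in normal glucose replicates 1 to 3. With mannitol they were 1374, 2844 and 2025 reads, and in high glucose 710, 2138 and 4783 reads. Against the limit of 9 reads, miR-29a-3p was therefore at least 78.9-fold (high glucose replicate 1) to at least 531-fold (high glucose replicate 3) higher than any arm listed at 0 in the same library. The only library that listed mmu-miR-29b-3p was normal glucose replicate 3, with 20 reads (18.1 CPM, 95% Wilson interval 11.7 to 27.9), where miR-29a-3p was 75.8-fold higher. The only library that listed mmu-miR-29c-3p was mannitol replicate 2, with 16 reads (10.1 CPM, interval 6.20 to 16.4), where miR-29a-3p was 178-fold higher. The level of miR-29b-3p there exceeded the limit of each other library, but its interval reached below the 12.4 CPM of high glucose replicate 1. The level of miR-29c-3p was itself below that limit. With 1 listed library each, no comparison of groups is given for these 2 members. Of the counts of the 3 guide arms together, miR-29a-3p took 98.7% (95% Wilson interval 98.0% to 99.2%) in normal glucose replicate 3 and 99.4% (interval 99.1% to 99.7%) in mannitol replicate 2, and the other 7 libraries listed no other guide arm. Intervals cover counting error only. The ratios and shares compare counts of different sequences, and whether the libraries capture these equally was not tested. The assignment of reads between miR-29a-3p and miR-29c-3p, told apart by 1 base, was not tested either.

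**Figure D1:**
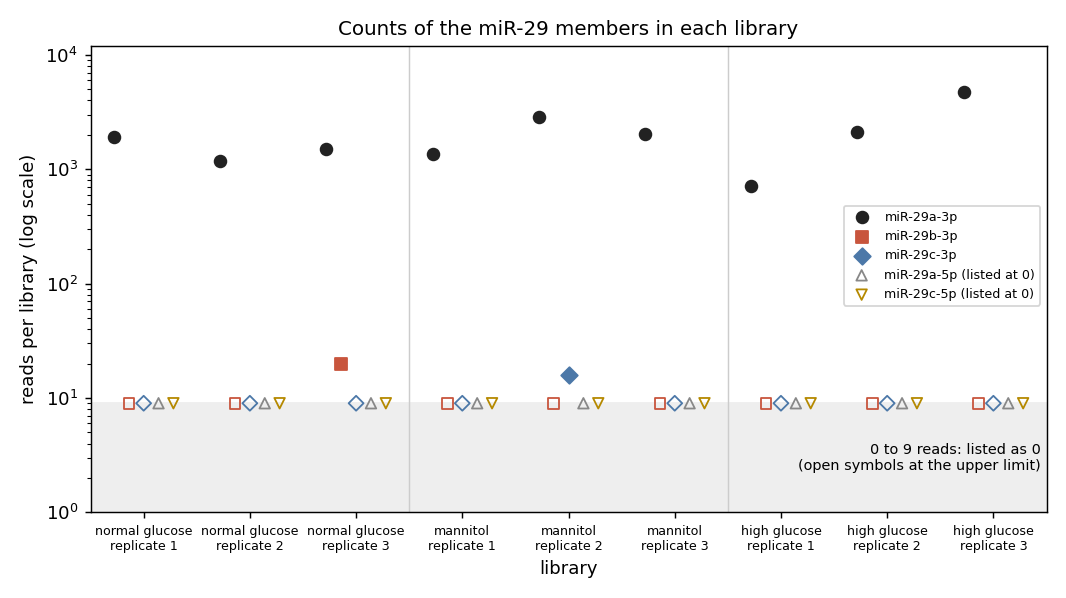
Reads of each of the 5 members (vertical axis, log scale) in each of the 9 libraries (horizontal axis), with open symbols at the upper limit of 9 reads for values listed at 0. miR-29a-3p lies between 710 and 4783 reads, and the only other listed values are 20 reads of miR-29b-3p and 16 reads of miR-29c-3p.

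The unlisted miR-29a-5p was set beside other hairpins. In 221 hairpins with both arms among the identifiers and at least 1 arm listed, the less abundant arm was listed in no library for 146. Among the 19 other hairpins whose main arm had a mean level within 2-fold of miR-29a-3p, 6 had the other arm listed in no library, 13 in at least 1 and 8 in all 9. The muscle miRNA miR-206-3p, for example, had 19537 reads over the 9 libraries and miR-206-5p had 0, while miR-200a-3p of the epithelial miR-200 family had 14929 reads and miR-200a-5p had 2821. For Mir29a these sums were 18498 and 0.

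**Figure D2:**
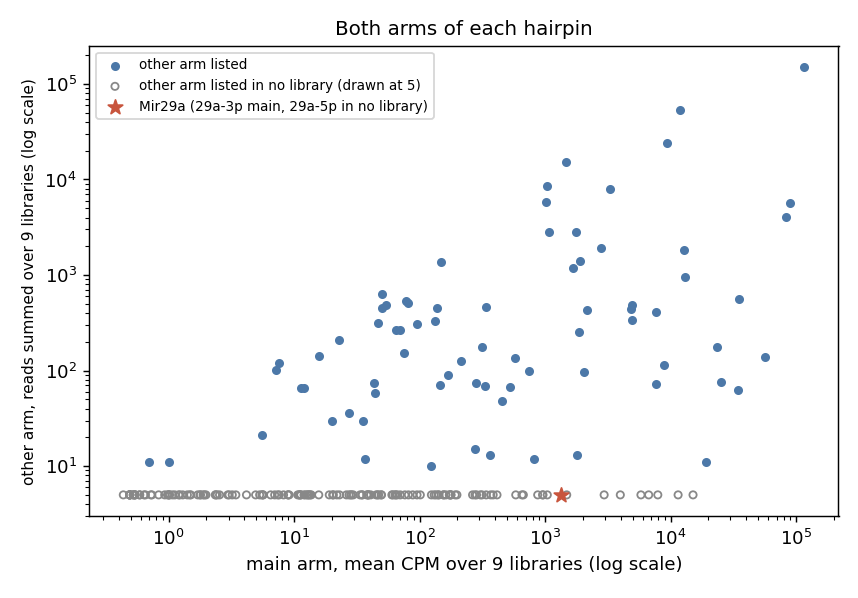
Each point is 1 hairpin, with the mean CPM of its more abundant arm over the 9 libraries (horizontal axis, log scale) and the reads of its other arm summed over the 9 libraries (vertical axis, log scale). Open circles drawn at 5 and the star for Mir29a are hairpins whose other arm was listed in no library, 146 of 221 in all.

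By its mean over the 9 libraries, 1328 CPM, miR-29a-3p ranked 69 among all identifiers, next to miR-143-3p (1381 CPM), a smooth muscle miRNA, and the broadly expressed miR-103-3p (1217 CPM). Its rank within a library was between 58 (high glucose replicate 3) and 77 (mannitol replicate 3). The podocyte-enriched miR-30 family was listed in full (5 of 5 members in all 9 libraries). Its summed level was 126420 to 140209 CPM in normal glucose, 106713 to 177083 CPM in mannitol libraries and 149949 to 224982 CPM in those of high glucose. High glucose lay above normal glucose without overlap. Most of the sum was miR-30a-5p, with means of 95933 CPM in normal and 152745 CPM in high glucose. In the same order the means were 36545 and 38850 CPM for miR-30d-5p and 890 and 1342 CPM for miR-30e-5p. They were 898 and 881 CPM for miR-30c-5p and 81.4 and 81.3 CPM for miR-30b-5p. Markers of other sources were also present. The liver miRNA miR-122-5p was at 9508 to 21808 CPM in normal glucose, 11659 to 22512 CPM in mannitol libraries and 9566 to 21078 CPM in high glucose, above miR-29a-3p in every library. Red cell markers were listed for 3 of 3, with miR-144-3p in 1 library only. They summed to 5023 to 8611 CPM in normal glucose, 3826 to 10981 CPM in mannitol libraries and 3124 to 4506 CPM in high glucose. High glucose lay below normal glucose without overlap. Most of this sum was miR-486a-5p, with means of 6345 CPM in normal and 3680 CPM in high glucose, while miR-451a had 198 and 181 CPM. Taken singly, 9.42% of 361 tested miRNAs did not overlap between high and normal glucose. Mannitol overlapped with both high and normal glucose in the miR-30 sum and in the red cell sum. The sums of the other lists overlapped between all groups. Muscle markers (3 of 3 listed) had 1666 to 3029 CPM in normal glucose, 1368 to 5994 CPM with mannitol and 1401 to 1761 CPM in high glucose. For endothelial markers (2 of 2 listed) the ranges were 229 to 825, 308 to 344 and 277 to 678 CPM in the same order, and for neural markers (2 of 2 listed) 13.8 to 65.0, 37.1 to 135 and 23.9 to 273 CPM. Blood immune markers (3 of 4 listed) had 11.7 to 57.9 CPM in high glucose, which took in the ranges of normal glucose (20.1 to 44.2 CPM) and mannitol (at most 46.6 CPM), and their member miR-142a-3p was listed at 0 in all 9. The part of these sources in the level of miR-29a-3p and in its differences between the groups was not tested, and in vesicle RNA fewer vesicles of a type and less of a miRNA per vesicle cannot be told apart.

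The level of mmu-miR-29a-3p in normal glucose was 1250, 1089 and 1369 CPM in replicates 1 to 3 (mean 1236 ± 141, SD, n = 3). With mannitol it was 1034, 1790 and 892 CPM (1239 ± 483, SD, n = 3), and in high glucose 979, 1675 and 1873 CPM (1509 ± 469, SD, n = 3). Mannitol replicate 2 and high glucose replicates 2 and 3 were above every normal glucose library, and mannitol replicates 1 and 3 and high glucose replicate 1 were below every one. All pairs of groups overlapped. Groups whose libraries did not overlap were found for 9.42% of 361 tested miRNAs in high against normal glucose, 10.2% in high glucose against mannitol and 3.32% in mannitol against normal glucose.

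The spread between libraries was wider than counting error. The counts behind each value give a counting coefficient of variation of 1.45% to 3.75%, while the coefficient of variation between libraries was 11.4% for normal glucose, 39.0% for mannitol and 31.1% for high glucose. The highest library stood 2.10-fold above the lowest. That range, 1.07 on the log2(CPM + 1) scale, was below the median range of 1.64 over all 361 tested miRNAs. Of these, 24.1% had a smaller range. Only 260 identifiers were listed in all 9 libraries, so the median includes miRNAs unlisted in some libraries, which widens their range. The tested miRNAs were not matched for level. Whether miR-29a-3p varied less than miRNAs of similar level was not tested.

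**Figure D3:**
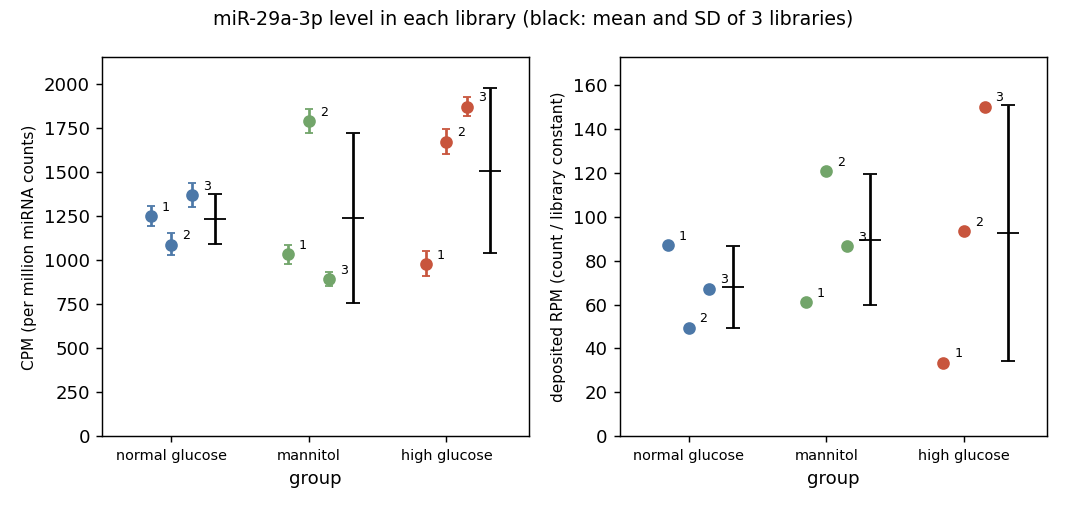
Level of miR-29a-3p in each library, numbered by replicate, as CPM with 95% Wilson intervals (left, vertical axis) and as the deposited RPM (right, vertical axis), with the mean and SD of the 3 libraries of each group in black. The mannitol and high glucose libraries spread more widely than the normal glucose libraries, and the groups overlap on both scales.

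The study asked how glucose changes the miRNA cargo of podocyte vesicles. In high against normal glucose, the log2 fold change of miR-29a-3p was 0.42 (SE 0.37, 95% interval -0.36 to 1.20) in the joint edgeR fit with TMM scaling, and its level was higher in 6 of 9 pairs of libraries. It did not pass (edgeR adjusted p = 0.995). No miRNA passed in this comparison, 0% of 361, with 10 at an unadjusted p under 0.05 in edgeR and 0 passing in DESeq2 or limma-voom. The median log2 fold change of all tested miRNAs was -0.04, their middle 50% lay between -0.40 and 0.27, and 63 of 361 had a larger value than miR-29a-3p. Without high glucose replicate 1, the library with the fewest counts, miR-29a-3p had 0.66 (edgeR adjusted p = 0.679), and without high glucose replicate 3 it had 0.23. With all libraries but no TMM factors it had 0.29 (SE 0.33), so part of the 0.42 came with that scaling.

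High glucose against mannitol compares the sugars at matched osmolality. Here the log2 fold change was 0.44 (SE 0.37, 95% interval -0.34 to 1.21), again with 6 of 9 pairs higher, and miR-29a-3p did not pass (edgeR adjusted p = 0.820). With edgeR 0% of 361 miRNAs passed, with 19 at an unadjusted p under 0.05, while DESeq2 called 1 and limma-voom 0, none of them a miR-29 member. Over all tested miRNAs the median was -0.04, and 68 had a larger value. The value moved with single libraries of both groups. Without mannitol replicate 2 the value was 0.94 (edgeR adjusted p = 0.0875, the range over the alternatives being 0.0875 to 0.9998 across edgeR, DESeq2 and limma-voom), without mannitol replicate 1 it was 0.25 and without mannitol replicate 3 it was 0.24. It was 0.66 without high glucose replicate 1, 0.30 without high glucose replicate 2 and 0.25 without high glucose replicate 3. With all libraries but no TMM factors it was 0.29 (SE 0.33). Scaled to the library constant behind the deposited RPM it was 0.05, while all tested miRNAs together had a median of -0.59, so that relative to that median it was 0.64.

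Mannitol against normal glucose measures added osmolality without added glucose. The log2 fold change of miR-29a-3p was -0.02 (SE 0.37, 95% interval -0.80 to 0.76), with mannitol higher in 3 of 9 pairs, and it did not pass (edgeR adjusted p = 0.9996). With edgeR 0% of 361 miRNAs passed, with 5 at an unadjusted p under 0.05, while DESeq2 and limma-voom called 0. Its sign changed with the setting, from -0.42 without mannitol replicate 2 to 0.40 when scaled to the library constant, where all tested miRNAs had a median of 0.50 and the value relative to it was -0.11. The intervals of the 3 comparisons leave room for changes in either direction. High glucose against normal glucose and against mannitol share the high glucose libraries, and the comparisons with a common control share that control.

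**Figure D4:**
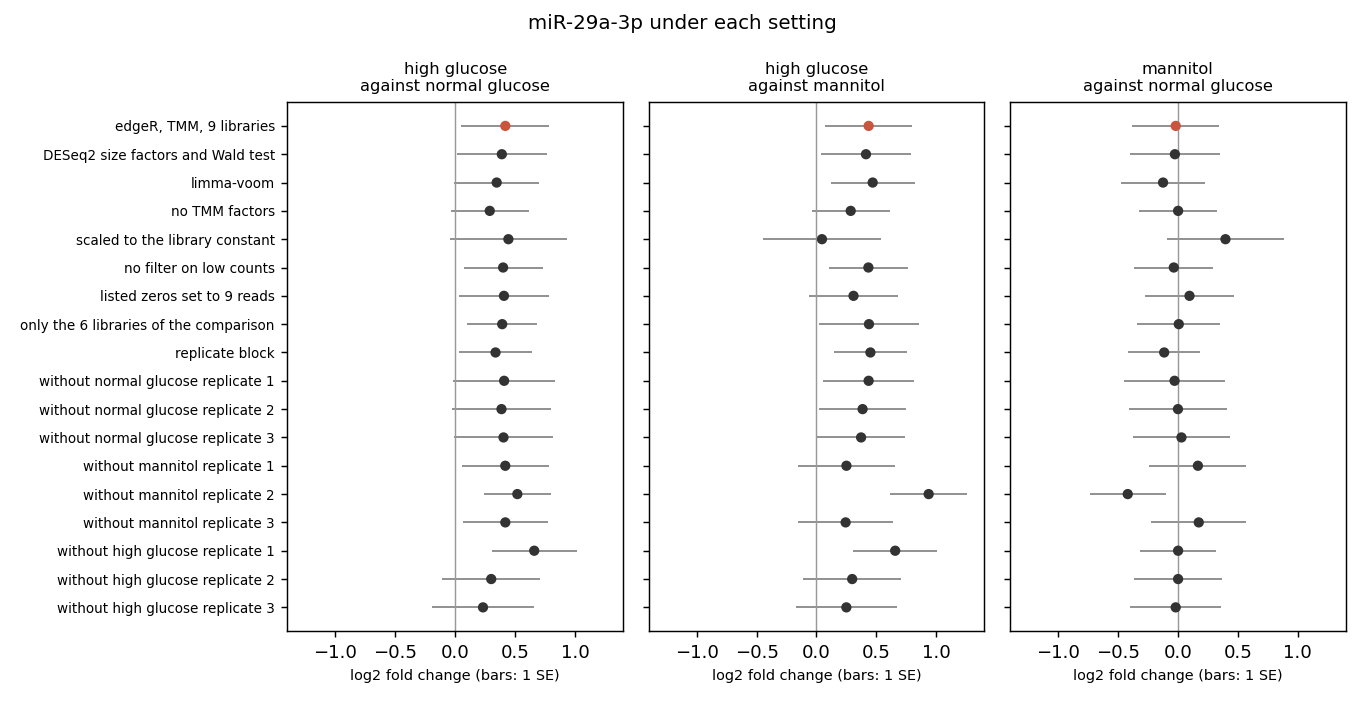
Log2 fold change of miR-29a-3p (horizontal axis, bars 1 SE) in each comparison (panels) under each setting (rows), with the joint edgeR fit in red. Values for high glucose are above 0 in all settings shown, from 0.23 to 0.66 against normal glucose and from 0.05 to 0.94 against mannitol, and the mannitol values lie on both sides of 0.

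The summed level of the 3 guide arms followed miR-29a-3p, at a mean of 1242 ± 149 CPM for normal glucose libraries, 1242 ± 489 CPM for mannitol libraries and 1509 ± 469 CPM for high glucose libraries (SD, n = 3 each). The ratio of means was 1.21 for high glucose against either control. Scaled to the library constant, it was 1.35 against normal glucose and 1.03 against mannitol. The remaining 4 members did not pass the filter on low counts and have no fold change in the main fit. That fit tested 1 of 5 members, beside 361 of 1915 identifiers. The alternatives without the filter and with listed zeros set to 9 reads tested 479 identifiers, miR-29b-3p and miR-29c-3p among them. Their values there rest on 1 listed library each and are not given.

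The tested miRNAs nearest to miR-29a-3p in pattern were miR-21a-5p, a miRNA linked to growth and fibrosis, miR-344-3p, miR-106b-5p of a growth-promoting cluster, miR-148b-3p and miR-200a-3p. Likeness was the root mean square difference of log2(CPM + 1) values over the 9 libraries, each miRNA centred on its own mean. It was 0.10 for miR-21a-5p, 0.12 for miR-344-3p, 0.13 for miR-106b-5p, 0.14 for miR-148b-3p and 0.14 for miR-200a-3p, where the median over all tested miRNAs was 0.71. That median includes miRNAs listed at 0 in some libraries, whose zeros add to the difference. The level of miR-21a-5p was 55028, 49673 and 57047 CPM in normal glucose replicates 1 to 3. It was 40158, 76516 and 34139 CPM with mannitol and 46763, 72882 and 75817 CPM in high glucose. As for miR-29a-3p, mannitol replicate 2 and high glucose replicates 2 and 3 were above every normal glucose library, and the other mannitol and high glucose libraries were below every one. Because miR-21a-5p was picked for likeness over these same values, the shared order is not a separate result. All miRNAs of a library share its depth and its scaling.

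**Figure D5:**
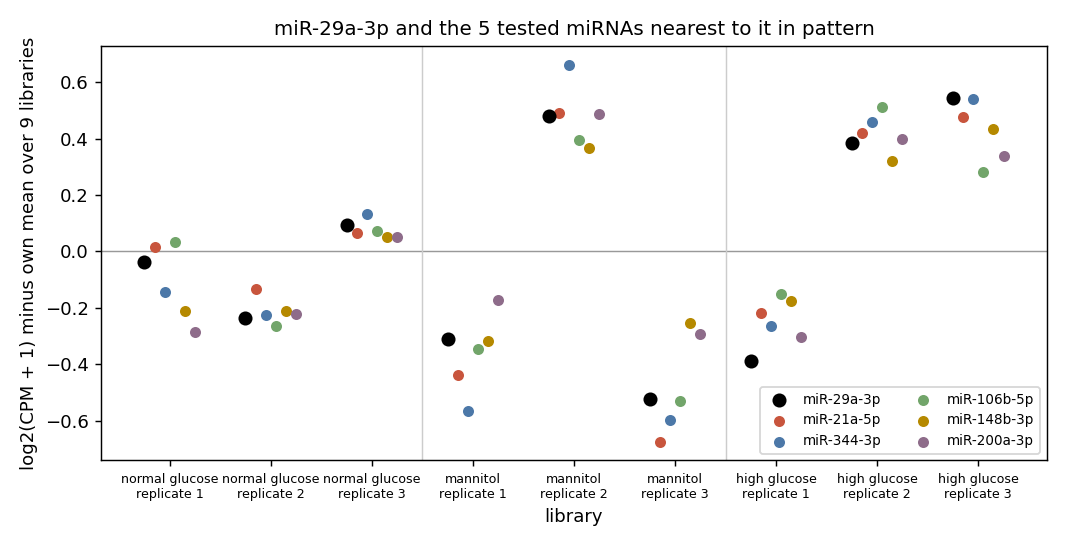
Levels of miR-29a-3p (black) and its 5 nearest miRNAs as log2(CPM + 1) minus their own mean over the 9 libraries (vertical axis), by library (horizontal axis). All 6 are highest in mannitol replicate 2 and high glucose replicates 2 and 3, and the groups overlap. The 5 were picked for likeness over these same values.

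Fibrosis-linked miRNAs with other seeds were described from a list of 22, of which 18 were tested. The list was not split by whether a miRNA promotes or restrains fibrosis, so its signs and medians have no direction for fibrosis. It holds miR-21a-5p and miR-200a-3p, which were picked above for their likeness to miR-29a-3p. In high against normal glucose, 0 passed in either direction with edgeR, 12 had positive and 6 negative values, and the median log2 fold change was 0.10, beside -0.04 over all 361 tested miRNAs. In high glucose against mannitol 0 passed, 11 were positive and 7 negative, with a median of 0.34 beside -0.04. In mannitol against normal glucose 0 passed, 7 were positive and 11 negative, with a median of -0.06 beside 0.01. Over all 361, positive values were held by 168 (46.5%) in each of the high glucose comparisons and by 188 (52.1%) in mannitol against normal glucose. At an unadjusted p under 0.05 in edgeR there were 1, 2 and 0 of the 18 in that order, beside 10, 19 and 5 of all 361. The most abundant were miR-21a-5p (mean 56447 CPM over the 9 libraries), the growth-restraining let-7b-5p (13020 CPM) and miR-101a-3p (5803 CPM), all above miR-29a-3p. In high against normal glucose the log2 fold change of miR-21a-5p was 0.39 (SE 0.35), that of let-7b-5p -0.64 (SE 0.32) and that of miR-101a-3p 0.87 (SE 0.42), and against mannitol they had 0.51 (SE 0.35), -0.32 (SE 0.32) and 0.67 (SE 0.42).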

How the data were processed

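The data were 9 tables, 1 per library, of the same 1915 identifiers. Per the file headers, the deposited total counts are whole-number read counts, used as deposited; the normalized values are RPM, which the authors made by dividing each count by a constant per library; what it counts is not stated. The tools and build named in the submitters' processing notes are BWA, bcl2fastq and mm10. Groups came from the treatment label, and replicate numbers from the titles, the unnumbered title being replicate 1. Libraries of a group differed in their counts beyond sampling noise. Chi-square per degree of freedom was 74.8 to 645 over 9 pairs, highest for mannitol replicate 2 against replicates 1 (375) and 3 (645). That check finds repeats of 1 library only and found none; it does not show that libraries came from separate cultures.

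All 9 libraries entered 1 edgeR 4.0.16 fit in R 4.3.3 (TMM, expression filter by group, robust quasi-likelihood test), which tested 361 miRNAs. P-values were adjusted over these by the Benjamini-Hochberg method, with a threshold of 0.05. The fit was tested on simulated data. Alternatives were DESeq2 1.42.0, limma-voom (limma 3.58.1), other scalings and filters, listed zeros set to 9 reads, a replicate block, and each library left out. Wilson intervals are at 95%. Whether the numbers in the titles pair libraries was checked by the correlation of same-numbered libraries' deviations from their group means. It was 0.20, 0.32 and 0.24 between high and normal glucose and 0.45, 0.52 and 0.17 between high glucose and mannitol. Between mannitol and normal glucose it was 0.23, 0.08 and -0.06. Each of the 9 libraries correlated best with a same-numbered library of another group. Pairs in both high glucose comparisons would also pair mannitol with normal glucose, where the only negative value, -0.06, was close to 0. No label ties a number to a shared culture or day. Same-numbered libraries were thus alike, but what the numbers stand for is not stated, and the pairing was not settled. The main fit is unpaired and leaves this likeness out, and the replicate block, which takes it in, is an alternative.

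The members, lists and naming rules were chosen with earlier results of these data known. Named were all members, the 5 nearest miRNAs in pattern to miR-29a-3p, and the 3 most abundant of the fibrosis list where none passed. Neighbours of miR-29b-3p and miR-29c-3p, listed in 1 library each, are not given. miR-206-3p and miR-200a-3p, as examples of arm use, miR-143-3p and miR-103-3p, as neighbours in level, and the printed collagen genes were chosen after their values were seen.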

Additional observations from a re-analysis of the deposited data

How the results depend on the processing

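In high glucose against either control miR-29a-3p kept a positive log2 fold change and did not pass in 17 of 17 alternatives, with 0.23 to 0.66 against normal glucose and 0.24 to 0.94 against mannitol when a library was left out. The alternatives refit the same libraries, so a shared sign is not repeated evidence of a change. In mannitol against normal glucose the sign turned in 10 of 17. The value there was 0.0029 without TMM factors, 0.40 scaled to the library constant, 0.10 with listed zeros set to 9 reads and 0.0085 with only the 6 libraries of the comparison. With a library left out it ran from -0.42 to 0.18. The cause was not tested. The count of miRNAs past the threshold, 0 in each comparison, became 2 (high against normal glucose), 3 (high glucose against mannitol) and 1 (mannitol against normal glucose) without the filter on low counts. It was 1 with DESeq2 in high glucose against mannitol and 1 with listed zeros set to 9 reads in mannitol against normal glucose. With a library left out the count stayed 0, or was 0 to 1 in high glucose against mannitol (1 without mannitol replicate 2). Without mannitol replicate 2, 25 of 372 miRNAs had an unadjusted p under 0.05 in edgeR in high against normal glucose. There were 96 in high glucose against mannitol and 36 in mannitol against normal glucose, beside 10, 19 and 5 of 361 with all libraries. No call was a miR-29 member.

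With replicate numbers as a block in the fit (the replicate block), miR-29a-3p had 0.34, 0.45 and -0.11 in high against normal glucose, high glucose against mannitol and mannitol against normal glucose, and 0 miRNAs passed in each, with 19, 52 and 17 at an unadjusted p under 0.05 (10, 19 and 5 without the block). The block changed no call in any comparison. With it the SE of miR-29a-3p was 0.30 in each comparison, beside 0.37 without it. The planned arm ratios were not computed, because miR-29a-5p and miR-29c-5p were listed in no library. For members listed at 0 the depth allows up to 9 reads per library.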
